A study of Mus musculus with 2 samples.

Results

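A set of 9 genes, grouped under the name zinc finger repressors of oligodendrocyte (OL) maturation, was followed in a list of Olig2-bound regions. The list came from the adult mouse spinal cord, and the genes were Zeb1, Zeb2, Zfp536, Zfp488, Zfp24, Myt1, Myt1l, Myrf and Yy1. The 9 genes were chosen by name, and a peak was counted for a gene when the deposited list gave that gene as its nearest one. By this rule 8 of 4215 peaks belonged to 4 of the 9 genes: 5 peaks to Zfp536 and 1 each to Zeb2, Zfp488 and Yy1. Zeb1, Zfp24, Myt1, Myt1l and Myrf were the nearest gene of no peak. The strongest of the 8 peaks lay in the second intron of Zfp536, and the only peak close to the transcription start site (TSS) of the gene it was given to, at Zfp488, was among the weakest of the whole list.

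Chromatin came from whole spinal cords of 6-week-old male C57BL/6 mice with no genetic change or treatment, and 5 cords were combined for each immunoprecipitation with an antibody against Olig2. The second group, Input, was sheared chromatin from the same kind of tissue without the antibody, and it served as the control for peak calling. Reads of 2 experiments were pooled before the peaks were called once, so that each peak has a single score without an error, and no difference between peaks or genes could be tested against replicates. Whole cord holds neurons, astrocytes and microglia beside the OL lineage, so a peak cannot be given to one cell type. The paper allows that some targets may come from a minor group of astroglia with Olig2, rather than from oligodendroglia. RNA was not measured, so the list does not show which of the 9 genes the cells of the cord express. The files list peaks rather than reads, and the depth behind a single peak is unknown.

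Olig2 is a basic helix-loop-helix factor that binds the E-box, a short DNA word written CANNTG, and it is needed to form OL precursors and for their later differentiation. Many regulators that act after Olig2 are zinc finger proteins, which grip DNA through small folds held by a zinc ion, and many of them work by keeping genes off. In the OL lineage such repressors are known on both sides: some silence the inhibitors of maturation, such as Id, Hes and BMP-Smad signaling, and so help the cell to myelinate. The name of the set does not cover all 9 genes. Myrf is a membrane-bound factor without zinc fingers that activates myelin genes, and Zeb2, Zfp488, Zfp24 and Yy1 are known to promote maturation. The roles given below for Zfp536, Zeb1 and Myt1l come from other cells, not from the OL lineage.

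The peaks were all 51 bp long. The sequences of the 4 strongest peaks are shown first because they show how the E-box motif was met at these genes (mm10, plus strand, with the bases of any CANNTG in capitals, or, where the peak had none, the word that the deposited motif search had marked). Of these, 3 belong to Zfp536 and 1 to Zeb2.
Zfp536, chr7:37704601-37704651: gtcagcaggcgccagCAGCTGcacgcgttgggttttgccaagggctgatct
Zfp536, chr7:37466997-37467047: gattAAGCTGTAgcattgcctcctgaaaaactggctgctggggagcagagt
Zfp536, chr7:37530969-37531019: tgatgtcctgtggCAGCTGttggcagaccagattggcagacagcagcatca
Zeb2, chr2:45181724-45181774: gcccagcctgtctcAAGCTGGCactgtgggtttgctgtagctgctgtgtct

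The other 4 peaks of the rule follow, with the same use of capitals. They are shown because they include the peak nearest to the TSS of its own gene (Zfp488) and the only one without the deposited E-box motif (Yy1).
Zfp536, chr7:37563458-37563508: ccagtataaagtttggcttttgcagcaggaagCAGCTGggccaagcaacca
Zfp536, chr7:37638894-37638944: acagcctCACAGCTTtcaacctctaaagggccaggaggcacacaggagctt
Yy1, chr12:108758084-108758134: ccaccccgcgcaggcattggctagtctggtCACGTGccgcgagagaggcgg
Zfp488, chr14:33977902-33977952: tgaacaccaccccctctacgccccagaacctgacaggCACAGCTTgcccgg

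A further 2 peaks lay inside the bodies of Zeb2 and Myt1l, but the list gave them to a microRNA and to a long noncoding RNA (lncRNA), whose starts were closer in RefSeq. Both held CAGCTG, and they are shown because the nearest-gene rule hides them from the member that hosts them.
Inside Zeb2, chr2:45028101-45028151: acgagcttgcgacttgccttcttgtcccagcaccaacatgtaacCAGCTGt
Inside Myt1l, chr12:29664821-29664871: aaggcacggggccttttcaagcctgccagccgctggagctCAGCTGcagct

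Against the background of the list, 44.4% of the members were the nearest gene of a peak (4 of 9, exact Clopper-Pearson 95% interval 13.7 to 78.8%, counting error only), beside 14.2% of protein-coding genes (3082 of 21774). The lower end of the interval was below the background share. By position rather than by nearest start, 4 of the 9 genes also held a peak center inside the gene body (Zfp536, Zeb2, Zfp488 and Myt1l), beside 9.10% of protein-coding genes (1982 of 21774). A longer gene offers more sequence for a peak, and Zfp536 (456 kb), Myt1l (396 kb) and Zeb2 (134 kb) were 3 of the 4 longest members, with Zeb1 (184 kb) being the other. The genes were chosen by name with earlier results of these data known, and the study had already reported Olig2 binding at Zeb2 and Zfp536. Both shares may therefore be raised by the choice of genes. Neither count was tested, for this reason and because the list has no replicate.

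**Figure D1:**
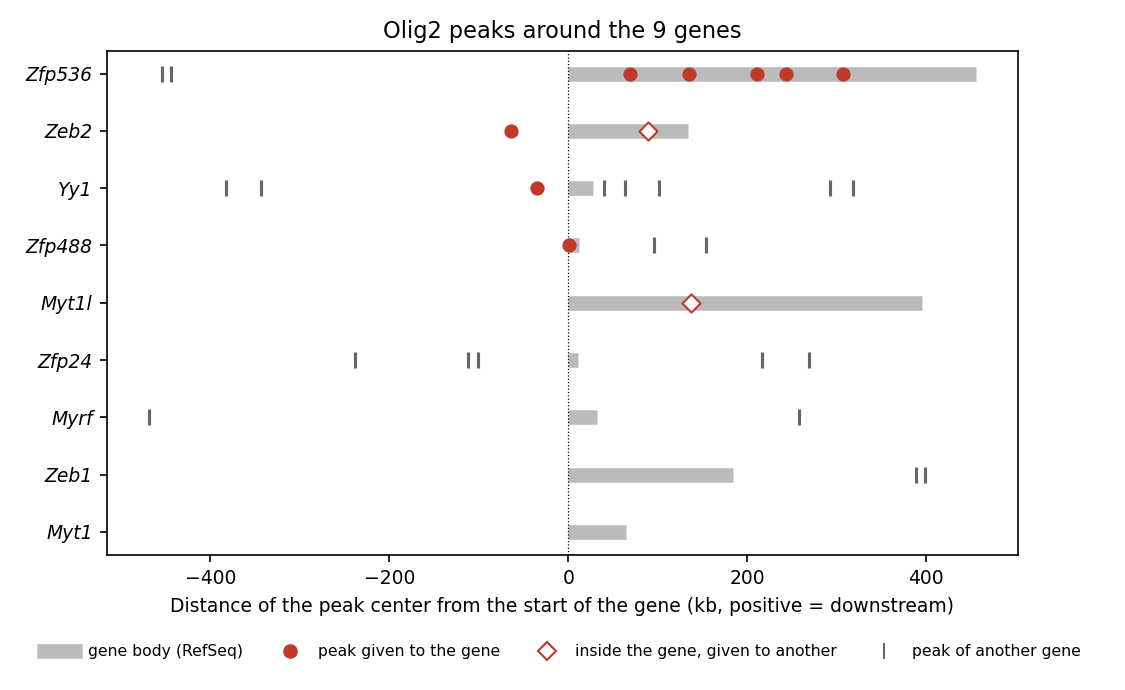
Olig2 peaks within 500 kb of the body of each of the 9 genes, one row per gene, with the distance from the start of the gene in kb on the x axis (positive is downstream). Zfp536 holds 5 peaks in its body, whereas no peak lies in or within 100 kb of the bodies of Zeb1, Zfp24, Myt1 and Myrf.

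Zfp536 is a zinc finger protein of the brain that is known, from cultured mouse cells, as a repressor of neuronal differentiation. It is the gene among the 9 where Olig2 peaks were repeated, with 5 peaks spread over 238 kb of chromosome 7. The gene lies at chr7:37318023-37774039 on the minus strand in the RefSeq annotation of GRCm38, the same assembly as mm10. The peaks stood 32.5 to 75.4 kb apart, so each was a separate site rather than one broad region split into pieces.

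The strongest Zfp536 peak had a score of 24.2 and rank 737 of 4215, with 82.5% of all peaks scoring lower. It lay in intron 2 of 5, 65126 bp downstream of the annotated TSS. The score was deposited with the peaks, which were called against Input. The sources used here name neither what it measures nor its scale, so scores were read only as an order. The word CAGCTG of this Zfp536 peak began 10 bp before the peak center, and no other CANNTG lay in the 200 bp around the center.

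The second Zfp536 peak scored 19.98 (rank 1054, shared with other peaks) and was deposited as intergenic, 302730 bp from the TSS. In the RefSeq annotation used here 13 of 14 Zfp536 transcripts ran over this site, but all 13 were computer predictions and no curated transcript reached it. In the GENCODE annotation the site lay in Gm44806, a transcript still to be experimentally checked, at chr7:37465120-37467422. The 51 bp held no CANNTG, and the motif search had marked AAGCTGTA, which holds AAGCTG rather than an E-box. A CAGCTG began 39 bp from the center, outside the 51 bp, and the surrounding 200 bp held 3 further CANNTG words, among them the CACCTG form.

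The other 3 Zfp536 peaks were intronic. A peak in intron 4 of 5, 238758 bp from the TSS, scored 15.7. Its CAGCTG began 12 bp before the center, and another CAGCTG began 29 bp before the center, starting outside the 51 bp. A neighboring peak in the same intron, at 206269 bp, scored 11.5 with CAGCTG 7 bp after the center. The weakest, in intron 3 of 5 at 130833 bp, scored 6.75, so that only 18.8% of all peaks scored lower, and it held no CANNTG in 51 or in 200 bp. In this set of 5 the scores ran from 6.75 to 24.2, which covers ranks 3387 to 737, and the order of the scores did not follow the distance from the TSS.

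**Figure D2:**
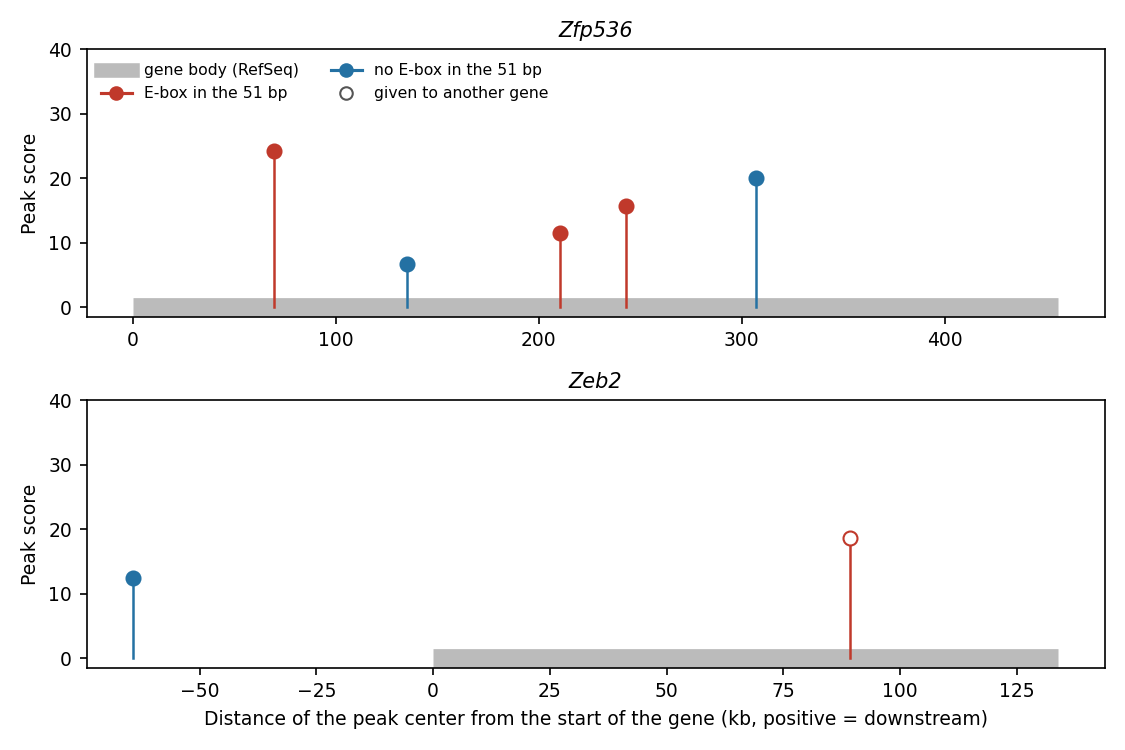
Peak score against the distance of the peak center from the most upstream RefSeq start (kb) for Zfp536 and Zeb2, with the gene body as a gray bar. The 5 Zfp536 peaks score from 6.75 to 24.2, and the open circle in Zeb2 (18.6) is the peak given to Mir5129.

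A total of 9 of 3463 nearest genes had 5 or more peaks, and Zfp536 was one of them. Among the others were Csrp1 with 7, Chd7, Septin9 and Wscd1 with 6 each, and Iqsec1, Vamp3 and Zfpm1 with 5 each. The median distance from the TSS was 206 kb for the Zfp536 peaks and 203 kb for those of Chd7, a chromatin remodeler known to act in OL differentiation, while the other 7 genes had medians of 5.66 to 108 kb. Highest scores per gene were 15.6 at Iqsec1 to 67.9 at Wscd1, and the 24.2 of Zfp536 was close to the 22.5 at Csrp1. None of the Zfp536 peaks was within 1 kb of the TSS, which was also so for 6 of the 9 genes in all.

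The name Zfp536 on these 5 peaks depended on the annotation. An lncRNA on the opposite strand, 4930505M18Rik (chr7:37669799-37672233), starts inside the Zfp536 body and was the nearest gene of no peak in the deposited list. When each peak was given to the nearest start of a curated RefSeq transcript, all 5 went to this lncRNA. The strongest peak was 34.8 kb from the start of 4930505M18Rik and 65.1 kb from that of Zfp536, and for the intergenic one the distances were 203 and 303 kb. Over the whole list 91.7% of peaks (3864 of 4212 on nuclear chromosomes) kept their deposited gene under this change. All 5 peak centers lay inside the RefSeq Zfp536 gene, the intergenic one through predicted transcripts.

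Zeb2 encodes a zinc finger and homeodomain repressor that binds E-boxes and is known to free OL precursors from BMP-Smad signaling. Its gene lies at chr2:44983512-45117442 on the minus strand. Its one peak by the rule scored 12.4 (rank 1978, tied with other peaks, with 52.0% of all peaks scoring lower), which was close to the middle of the list. It was intergenic, upstream of the gene, at -68470 bp from the annotated TSS and 64307 bp from the closest RefSeq start of the gene. No annotated gene covered it, and the next peak was 153623 bp away. That neighbor was the hidden peak inside Zeb2 itself.

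The hidden Zeb2 peak scored 18.6 (rank 1182, with 71.7% of all peaks scoring lower), above the 12.4 of the peak that carried the gene's name. It lay in intron 1 of 8 of a Zeb2 transcript, in a MIRc repeat (a short interspersed element), 4949 bp upstream of Mir5129 (chr2:45023100-45023177). It lay 82151 bp downstream of the closest RefSeq start of Zeb2, while in GENCODE a Zeb2 transcript started 4456 bp from it, closer than Mir5129. CAGCTG began 19 bp after its center, whereas the upstream peak reached the E-box motif through AAGCTGGC and had a CAGCTG only 43 bp after the center, beyond its 51 bp. Thus both Zeb2 sites had CAGCTG within 50 bp of their centers, 1 of them inside the peak.

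Zfp488 is a nuclear zinc finger repressor of the OL lineage that is known to bind Olig2 and to promote OL differentiation. Its gene is short (12.0 kb, chr14:33967070-33979034, minus strand), and its one peak stood 837 bp downstream of the TSS in intron 1 of 1. With a score of 4.30 and rank 4035 it was above only 3.72% of all peaks. The word marked by the motif search was CACAGCTT, which holds AAGCTG when read on the other strand, and there was no CANNTG in 51 or in 200 bp. A predicted RefSeq transcript of the gene had an exon over the site. The next peaks on this stretch were given to Gdf10, a member of the BMP family, at 83759 bp from the Zfp488 body (score 12.4) and at 142523 bp (score 14.8).

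Yy1 is a zinc finger protein of nearly all cells that can activate or repress, and in OL precursors it is known to recruit histone deacetylase to silence Tcf7l2 and Id4. Its peak scored 5.67 (rank 3742, with 9.99% of all peaks scoring lower) and lay upstream of the gene, at -35202 bp from the TSS, in a CpG-rich stretch annotated as intergenic. GC made up 70.6% of the peak, the highest share of the 8. It was the only one of the 8 without the E-box motif, although CACGTG, another CANNTG word, began 5 bp after its center. The RefSeq annotation placed it within a predicted lncRNA, Gm33628 (chr12:108756515-108758191), 82 bp from the start of that RNA. The Yy1 body itself (chr12:108792945-108820148) had a closer peak, 12325 bp away, which belonged to Slc25a29 with a score of 12.5.

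Myt1l, a zinc finger repressor known from neurons, where it keeps non-neuronal genes off, had no peak by name. Its body (chr12:29527590-29923216, plus strand) nevertheless held one peak, in intron 3 of 24, which the list gave to the lncRNA C630031E19Rik (chr12:29675630-29686445) at 21599 bp. It scored 11.4 (rank 2198, with 47.5% of all peaks scoring lower) and was 129624 bp downstream of the closest RefSeq start of Myt1l. CAGCTG stood 15 bp after its center. The next peak, at Tssc1, was 754075 bp away, in a list with 1.55 peaks per Mb of the nuclear genome.

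The remaining 4 genes had no peak by name or in the body. Zeb1, the E-box-binding relative of Zeb2 that is known as a repressor of Cdh1 in epithelial-mesenchymal transition, lies at chr18:5591327-5775468, and the closest peak was 203908 bp beyond its body and belonged to Arhgap12 with a score of 6.57. Zfp24, known to be required for central myelination in mice, lies at chr18:24009717-24020813, and its closest peak was that at the promoter of Ino80c, 101158 bp away with a score of 16.1. For Myrf (chr19:10208271-10240777) the closest peak was at the promoter of Fth1, the ferritin heavy chain, with a score of 21.2 and 225804 bp from the Myrf body.

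Myt1, the founding member of the Myt family and a known regulator of OL precursor differentiation, was the farthest of the 9 from a peak. It lies at chr2:181763332-181827775, and the closest peak, at the promoter of Ppdpf with a score of 10.5, was 576541 bp away. Over all protein-coding genes the median distance from the body to the closest peak was 116 kb. Zfp24 was nearer than this median, with 52.8% of protein-coding genes farther from a peak, while Zeb1 (38.6%), Myrf (36.5%) and Myt1 (19.8%) were on the far side of it. A missing peak says only that no region passed the caller's threshold.

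The 8 peaks of the members had a median score of 11.9 (4.30 to 24.2), next to 11.6 for all 4215 peaks. Without the 5 Zfp536 peaks the median of the other 3 was 5.67. A score of at least 10 was reached by 5 of the 8 peaks beside 60.5% of all peaks, and a score of at least 20 by 1 of 8 beside 24.8%. The peaks of the members were thus not placed high in the list, and the 2 promoter-side or CpG-rich ones, at Zfp488 and Yy1, were the lowest of the 8.

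**Figure D3:**
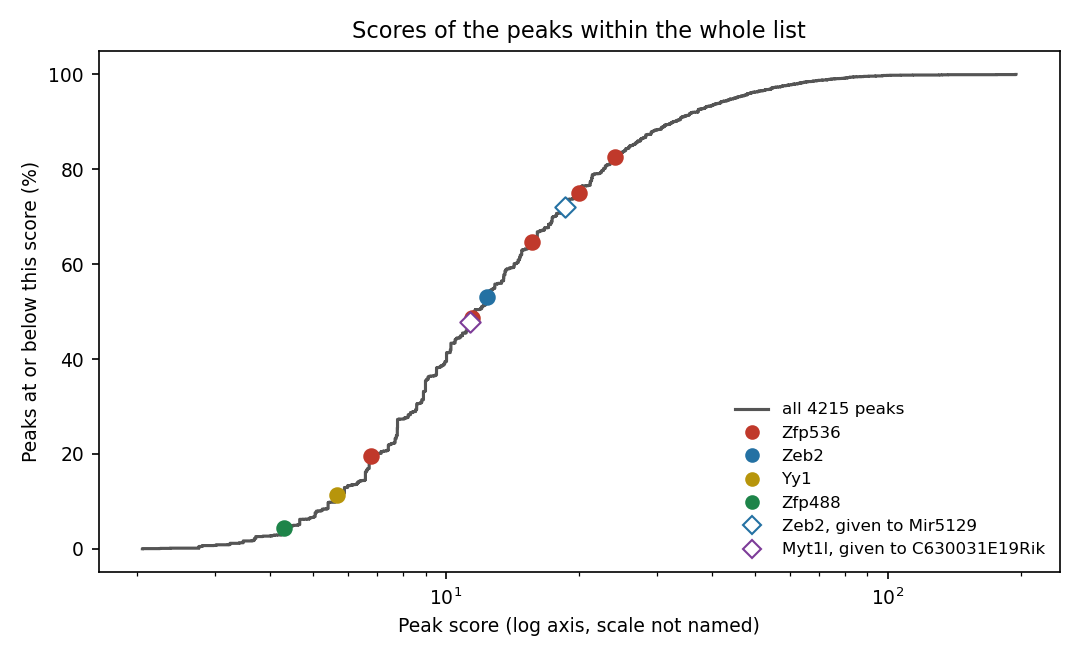
Cumulative percent of all 4215 peaks (y axis) against the peak score (x axis, log scale), with the 8 peaks of the members and the 2 hidden peaks marked. The members run from 4.30 (Zfp488) to 24.2 (Zfp536), around the median of all peaks (11.6).

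Most of the members' peaks lay far from the TSS of the gene they were given to. Their median distance to it was 99.7 kb, compared with 5.32 kb for all peaks, and 6 of the 8 were over 50 kb from the TSS, beside 16.8% of the list. None was annotated to a promoter, beside 37.3% of the list, and 1 of 8 was within 1 kb of the TSS of its deposited gene, beside 41.0%. Starts of other transcripts were not counted here, and 2 more of the 8 lay within 1 kb of one: the Yy1 peak (82 bp from Gm33628 in RefSeq) and the intergenic Zfp536 peak (400 bp from Gm44806 in GENCODE). An intron held 5 of 8 (32.4% of all peaks) and intergenic sequence 3 of 8 (23.8%). Of the 6 far peaks, 5 were those of Zfp536 and the other was that of Zeb2.

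The deposited motif search had found the E-box motif in 7 of the 8 peaks, beside 60.0% of all peaks and 77.6% of the 710 peaks over 50 kb from a TSS. CANNTG itself was in 4 of the 8 (51.8% of all peaks, 69.2% of the 710 far ones), and in 3 of them as CAGCTG. This was the most frequent form over the whole list, with 32.9% of all peaks holding it in the 51 bp, followed by CAGATG (read on either strand) with 14.1%. In 200 bp around the center, 5 of the 8 held CAGCTG (62.5%), beside 46.7% of all peaks and 61.5% of the 710 far ones. In a window of the same length shifted by 1 kb toward higher coordinates, whatever the strand of the gene, 0 of the 8 held it. This was so for 9.40% of all peaks and 8.17% of the far ones, which did hold it. CANNTG of any form was in 6 of 8 windows around the center (76.6% of all peaks, 90.0% of the far ones). It was in 2 of 8 shifted windows (66.4% of all peaks, 66.9% of the far ones).

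**Figure D4:**
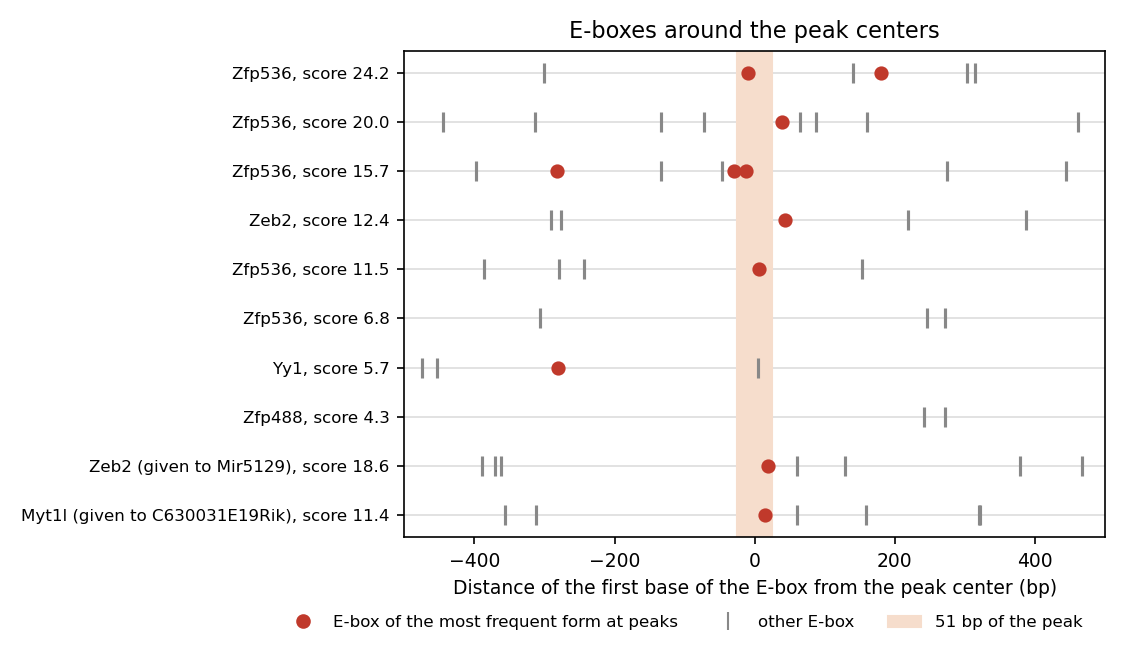
Positions of CANNTG words within 500 bp of the centers of the 8 peaks of the members and the 2 hidden peaks, in bp, with CAGCTG (the most frequent form at peaks) as filled circles and other forms as ticks. CAGCTG lies within 50 bp of the center in 7 of the 10 rows.

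A closer look at the words behind the motif showed that 4 of the 7 members' peaks with the E-box motif had been matched through AAGCTG alone: 2 at Zfp536 (scores 19.98 and 6.75), the one at Zeb2 and the one at Zfp488. Over the whole list 334 of 2529 peaks with the motif (13.2%) had AAGCTG words only. The median score was 12.4 for those 334 peaks and 13.5 for the 1894 peaks whose words held CANNTG. As AAGCTG is not an E-box, the count of 7 is a count of motif matches, and the count with an E-box in the 51 bp is 4, with Yy1 among them and without the 4 AAGCTG peaks.

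Zeb1 and Zeb2 are known to bind the form CACCTG, searched here on both strands. This form was in the 200 bp of 1 of the 8 members' peaks, the intergenic Zfp536 one, beside 8.64% of all peaks. It was not in the 200 bp of either Zeb2 site. These letters do not show which factor can bind there.

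**Figure D5:**
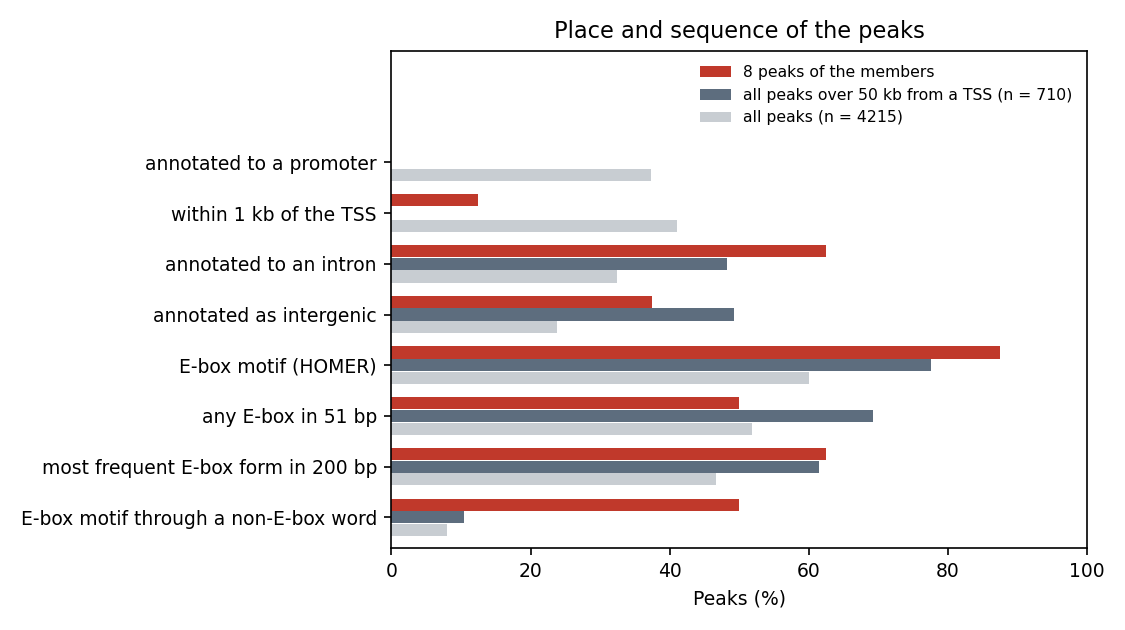
Percent of peaks with each property for the 8 peaks of the members, the 710 peaks over 50 kb from a TSS and all 4215 peaks. The E-box motif is in 7 of the 8 members' peaks. For 4 of the 8 it rests on AAGCTG words without CANNTG, beside 7.92% of all peaks. Motif words without CANNTG, of any kind, stood behind the motif in 15.1% of all peaks.

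The length of sequence for which a gene is nearest sets how many peaks it can collect. Counted by the nearest start of a protein-coding gene, the 9 members took in 10 peaks in 3.84 Mb, or 2.61 peaks per Mb (exact Poisson 95% interval 1.25 to 4.79, counting error only), beside 1.55 per Mb for the nuclear genome. Zfp536 had 5 in 0.642 Mb, or 7.79 per Mb (2.53 to 18.2). It is shown apart as the member with the most peaks, a choice that by itself favors a high density and that the interval does not cover. By curated RefSeq starts these 5 peaks went to 4930505M18Rik instead. The other 8 genes had 5 in 3.20 Mb, or 1.56 per Mb (0.508 to 3.65). Zeb2, with the widest stretch at 1950 kb, had 2 of these peaks, whereas Zeb1 with 410 kb and Myt1l with 567 kb had 0 and 1.

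Promoter sequences (300 bp across the start) were matched in RefSeq tables of GRCm38 for 6 of the 9 genes, with 15 promoters in all. Zeb1, Zfp24 and Myrf had none matched. Of the 15, Myt1l gave 5, Zeb2 4 and Myt1 3, so the promoters were not independent. CAGCTG, searched on both strands, was in 2 of the 15 (13.3%), at Zfp488 and Myt1l, beside 16.3% of all 32851 promoters. CANNTG was in 7 (46.7%), beside 72.3%, and none of the 4 Zeb2 promoters held it. The Zfp488 peak, at 837 bp downstream, lay outside this promoter window, and no peak center of the list fell in one of these promoters.

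The members were set beside 40 other zinc finger genes. Of these, 11 (27.5%, exact 95% interval 14.6 to 43.9%) were the nearest gene of 14 peaks, beside the 14.2% of all protein-coding genes. These genes were also chosen with earlier results of these data known, so the interval covers counting error only and enrichment was not tested. The E-box motif was in 12 of these peaks, and 1 was within 1 kb of the TSS of its gene. Gli2, an effector of Sonic hedgehog signaling, had 3 peaks, and its strongest scored 69.0 at 76735 bp from the TSS in intron 2. Sall3 (54.6, at -265797 bp), Zfhx2 (40.3, at 2669 bp), Zfp365 (22.7, at 6419 bp), Bcl11b (16.1, at -60751 bp) and Zfp521 (14.8, at 122107 bp) followed. St18, the other member of the Myt family, and Yy2, the relative of Yy1, were the nearest gene of no peak. The median score of the 14 peaks was 12.2, close to the 11.9 of the members.

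A list of 32 genes known to act with or after the members gave 11 genes with a peak (34.4%, exact 95% interval 18.6 to 53.2%) beside 14.2% of all protein-coding genes, and 21 peaks with a median score of 16.5. The list was chosen with earlier results of these data known. It includes Olig1, Olig2, Mbp, Mog and Mag, which the study had already reported as targets. The share is therefore raised by the choice of genes, the interval covers counting error only, and enrichment was not tested. By gene body, 5 of the 32 genes (15.6%) held a peak, beside 9.10%. Olig1 scored highest (62.5, at -3607 bp), and Olig2 itself reached 18.5 with 4 peaks. Tcf7l2, a Wnt effector that Yy1 is known to silence, scored 33.4 at 134212 bp from its TSS, and Axin2, a feedback inhibitor of the same pathway, scored 20.01 at 91611 bp in a ribosomal RNA repeat. Smad1, a carrier of the BMP signal that Zeb2 is known to oppose, scored 22.4 in intron 3, and Rffl, an E3 ligase gene, scored 25.7.

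On the partner list the corepressor Ctbp1, which Zeb proteins recruit, had a peak of score 9.95 at 1977 bp from its TSS in intron 1, whereas Ctbp2, Hdac1, Hdac2, Sin3a, Sin3b and Kdm1a had none by name. Smad7, Id2, Id4 and Hes1, known targets of Zeb2 or Yy1, also had none, while Hes5 had a weak one (5.67). Mbp, Mog and Mag, myelin genes that Myrf is known to activate, had peaks with scores of up to 17.4, 16.5 and 6.71, respectively, although Myrf had none. Sox10 had no peak by name.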

How the data were processed

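Olig2 ChIP and Input libraries were made from pooled cords, and BWA (alignment to mm10), MACS2 (peaks called once on the pooled experiments against Input) and HOMER (annotation and motifs) were run by the authors. The deposited Peak Score is a score with no named scale. The deposited GC and CpG contents are given as a fraction of the 51 bp. No separate Input table was analysed here, and a second sheet of peaks was not used. The deposited gene type and description columns hold each other's content and were read accordingly.

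Peaks were selected by the deposited nearest gene. Sequences, gene bodies and promoters came from RefSeq GRCm38.p6, and GC content recomputed from it matched the deposited value for 4212 of 4212 nuclear peaks. Scripts used Python 3.11.15, pandas 2.3.3, scipy 1.17.1 and pysam 0.24.0. The word search was tested on simulated data, where 100% of 500 planted words were found. Members and gene lists were chosen with earlier results of these data known. The text names every member and all their peaks, up to 6 genes of each list by score, genes that host or flank a peak of a member, and partners of a member with no peak. With 1 pooled list there was no replicate, hence shares stand beside the background with no test. Exact intervals cover counting error only. Alternatives in score, distance, gene assignment and window were tried. Some genes of the lists are not reported here.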

Additional observations from a re-analysis of the deposited data

How the results depend on the processing

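No paired analysis was possible because the result comes from 1 pooled list of peaks and no test. With a score of at least 10, the members with a peak went from 4 to 2, their peaks from 8 to 5, those within 1 kb of a TSS from 1 to 0, and the zinc finger genes with a peak from 11 to 7. Over the whole list 60.5% of peaks reached a score of 10 and 24.8% a score of 20, so a similar loss is seen among all peaks. With a score of at least 20, 1 member and 1 peak were left (median score 24.2, with the E-box motif in 1 and 0 within 1 kb of a TSS), together with 4 zinc finger genes and 5 partner genes. The density of the members was 2.61 peaks per Mb over all scores, beside 1.55 for the genome. At a score of at least 10 it was 1.82 beside 0.935. At a score of at least 20 it was 0.261 beside 0.384, and this value rests on 1 peak. Within 1 kb of a TSS there were 1 member, 1 peak, 1 zinc finger gene and 3 partner genes, and with 500 bp in place of 1 kb there were 0 peaks. Within 100 kb there were 4 peaks. The E-box motif was in 3 peaks when each member kept its strongest one, while 4 peaks had CANNTG and 3 had CAGCTG in the 51 bp. CAGCTG was in 3 peaks with 51 bp in place of 200 bp.

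Some alternatives were chosen after seeing the data. By gene body alone, 5 partner genes had a peak. By curated RefSeq starts, 3 peaks of 3 members were left, and without Zfp536 the E-box motif was in 2 peaks. Of all values under alternatives, 25 moved (counts by over 1.5 times, the median by over 1 SD of the members' scores, the density past its interval) and 29 did not. A stricter cut can only lower a count, and such moves are among the 25. Depth per peak is unknown, and weak sites under the caller's threshold cannot be told from unbound ones.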
